A study of Mus musculus with 11 samples.

Results

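The Hsp70 family genes described here are the 10 mouse genes Hspa1a, Hspa1b, Hspa1l, Hspa2, Hspa4, Hspa4l, Hspa8, Hspa9, Hspa13 and Hspa14. They were taken by exact gene symbol from the 23238 genes of each library. All 10 were present in all 11 libraries, and all 10 passed the filter on low values, as did 18248 genes in all (3 or more libraries with a normalized count of 1 or more).

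RNA sequencing was performed on cells that the labels call mouse cavernous endothelial cells, from the erectile tissue of the penis. All groups were grown in M199 medium with serum, antibiotics and heparin and were treated for 5 days. Normal glucose had 3 libraries, high glucose had 4, and high glucose with added Hsp70 had 4. The series' title ties the study to Hsp70-driven neurovascular regeneration and to cystathionine gamma-lyase. The labels give no strain, genotype or age of the mice, no glucose concentration, no form or dose of the added Hsp70, and do not say whether replicates were separate cultures or animals. P-values therefore measure the spread between these libraries, which may be technical. The deposited files carry a set number: sets 3, 4 and 5 hold 1 library of each group, and set 2 holds 1 high glucose library and 1 library with Hsp70. No normal glucose library belongs to set 2.

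Values are log2(normalized count + 1), and differences are on that scale unless stated. Normalized counts summed to 24.8 to 27.8 M per library, and the 10 genes together took 0.382% to 0.579% of them. The 12 endothelial markers checked summed to 1996 to 2177 normalized counts in set 3 and to 336 to 538 in the other sets. Cldn5, Tie1, Robo4 and Nos3, which mark endothelium, were each below 1 in at least 1 library outside set 3, Cldn5 in every one of them. None of the other endothelial markers checked was below 1 in any library. The 10 fibroblast markers summed to 337846 to 413525 in set 3 against 165796 to 268656 elsewhere. For the 10 macrophage and leukocyte markers the sums were 3678 to 4483 in set 3 against 296 to 388 elsewhere. For the 8 Schwann cell markers they were 3421 to 7387 against 919 to 2508. Those of the 10 smooth muscle and pericyte markers overlapped, at 10941 to 13913 in set 3 and 8697 to 11975 elsewhere. These sums overlapped between the 3 groups. In bulk RNA, fewer cells of a type and less RNA per cell cannot be told apart.

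Hsp70 proteins are ATP-driven chaperones that bind exposed hydrophobic stretches of unfolded proteins and release them on nucleotide exchange. J-domain proteins bring the client and speed ATP hydrolysis, and nucleotide exchange factors, among them the Hsp110 class, reset the cycle. Cytosol, mitochondria and endoplasmic reticulum hold their own members, and heat shock factor 1 drives the stress-inducible genes through heat shock elements, arrays of inverted nGAAn units.

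The inducible genes Hspa1a and Hspa1b encode the stress-induced cytosolic Hsp70. They lie as single-exon genes in the major histocompatibility region. On mm10 (GENCODE M21), Hspa1b occupies chr17:34956436-34959238 and Hspa1a chr17:34969190-34972156, both on the minus strand and 9951 bases apart. Hspa1l starts 546 bases beyond Hspa1a on the plus strand, at chr17:34972703-34979285. The 250 bases before each start (RefSeq, GRCm38.p6) are shown because the inducible pair is nearly identical there. Of 250 bases 247 were the same (98.8%), whereas Hspa1l, read from the opposite strand, has its own. Capitals mark the heat shock half-site pair GAANNTTC and the CCAAT box, written CCAAT or ATTGG.
Hspa1a, chr17:34972157-34972406, minus strand: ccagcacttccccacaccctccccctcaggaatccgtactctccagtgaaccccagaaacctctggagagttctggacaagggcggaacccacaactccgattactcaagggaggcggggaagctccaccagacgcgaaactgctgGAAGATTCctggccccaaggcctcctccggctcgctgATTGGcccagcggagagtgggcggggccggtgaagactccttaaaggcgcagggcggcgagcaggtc
Hspa1b, chr17:34959239-34959488, minus strand: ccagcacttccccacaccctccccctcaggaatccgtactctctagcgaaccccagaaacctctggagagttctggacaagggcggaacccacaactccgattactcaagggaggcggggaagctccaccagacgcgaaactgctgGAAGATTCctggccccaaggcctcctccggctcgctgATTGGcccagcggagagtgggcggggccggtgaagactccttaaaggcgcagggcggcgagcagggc
Hspa1l, chr17:34972453-34972702, plus strand: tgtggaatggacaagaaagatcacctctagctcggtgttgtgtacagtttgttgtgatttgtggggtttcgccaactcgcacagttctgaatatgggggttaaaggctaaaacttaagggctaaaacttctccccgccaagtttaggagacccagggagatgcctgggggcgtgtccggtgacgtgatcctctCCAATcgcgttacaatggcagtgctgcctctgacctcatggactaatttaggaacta

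The half-site pair GAANNTTC, which reads the same on both strands, lies 104 bases before the start in both Hspa1a and Hspa1b, and the CCAAT box 67 bases before it. GAANNTTC was in 6.69% of 32851 mouse promoters of the same length, the other pair TTCNNGAA in 7.17%, either in 12.8%, the CCAAT box in 33.8%, and TATAAA in 12.4%, all searched on both strands. Promoters were matched for 7 of the 10 genes (not Hspa8, Hspa9 or Hspa13). Neither pair occurred in the windows of Hspa1l, Hspa2, Hspa4, Hspa4l and Hspa14. These matches describe letters in these windows and show no binding.

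The transcripts of Hspa1a and Hspa1b also share long stretches. Of all 50-base windows of the Hspa1a transcript, 58.8% occurred unchanged in Hspa1b, and at 100 bases 47.1% did. Of Hspa1l windows, 9.57% at 50 bases occurred in Hspa1a. For Hspa8, 73.2% occurred in another annotated gene, mostly processed copies such as Gm15459 (70%). How reads that fit several genes were counted is not given in the sources used here. The separate values of Hspa1a, Hspa1b and Hspa1l, and the level of Hspa8, are uncertain to that extent. Hspa1a overlaps the opposite-strand gene Gm20481, Hspa1l the antisense gene Gm10501, and Hspa14 the same-strand gene Gm45902. The kit is stranded, but whether counting used strand is not stated.

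Levels of different genes were compared as normalized counts per kb of annotated exon. Hspa8, the constitutive cytosolic Hsc70 that also uncoats clathrin vesicles, was the most abundant in all 11 libraries, at 18445 ± 3551 per kb (SD, n = 11), and made up 63.3% to 75.9% of the total per kb of the 10 genes. Hspa9, the mitochondrial Hsp70 known as mortalin, was next of the 10 at 4479 ± 1670. Hspa5, the Hsp70 of the endoplasmic reticulum, is not among the 10 genes: it stood at 5875 ± 587 per kb, above Hspa9 in 10 of 11 libraries, and with it in the total the share of Hspa8 was 54.5% to 62.1%. Hspa4, an Hsp110-class exchange factor, stood at 2185 ± 290, and Hspa14, of the ribosome-associated complex, at 320 ± 27.9.
The inducible genes came below these, with Hspa1b at 215 ± 47.5 and Hspa1a at 158 ± 35.5 per kb. Hspa13, a microsomal member, stood at 214 ± 40.2, Hspa4l, a relative of Hspa4, at 110 ± 44.4, Hspa2, best known from spermatogenesis, at 69.4 ± 19.7, and Hspa1l at 19.1 ± 4.54. The ranges over libraries did not overlap from Hspa8 to Hspa9 to Hspa4 to Hspa14, nor from Hspa2 to Hspa1l. They overlapped between every neighbouring pair from Hspa14 down to Hspa2. With the longest coding transcript as the length, Hspa13 (346 ± 64.9) moved ahead of Hspa1b and no other rank changed. The distances did: on that length Hspa8 stood at 33138 ± 6380 and Hspa14 at 723 ± 63, while Hspa1a and Hspa1b, with 1 transcript each, kept their values.

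**Figure D1:**
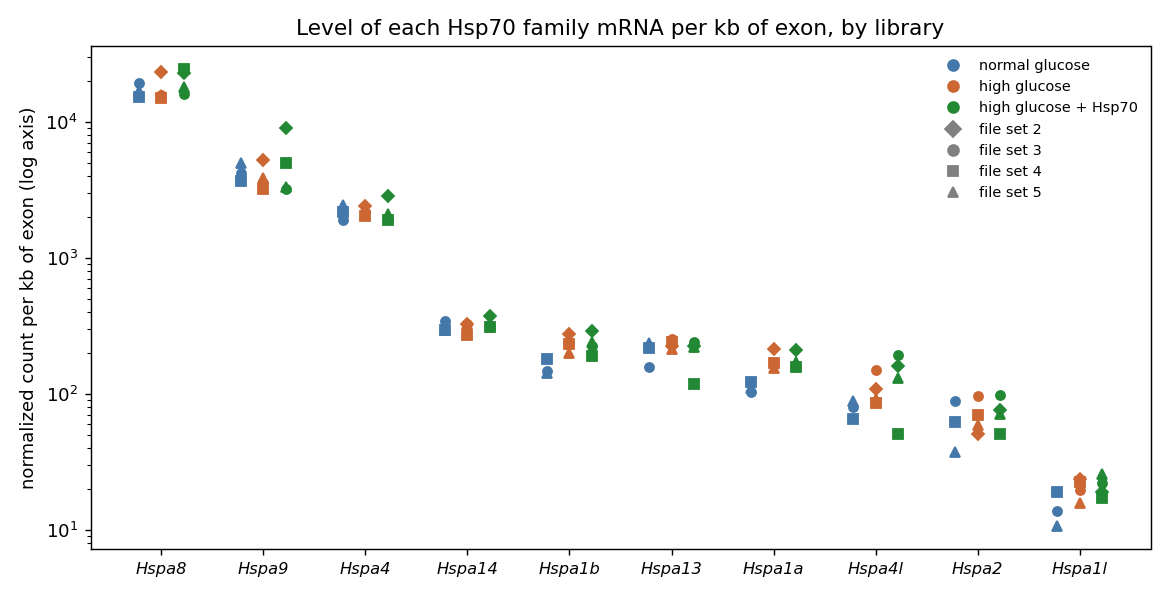
Normalized count per kb of annotated exon (log axis) of the 10 Hsp70 family genes, 1 point per library, coloured by group and shaped by file set. Hspa8 lies between 15050 and 24635 per kb, Hspa1a between 104 and 215, and Hspa1l between 10.7 and 25.9.

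Both inducible genes had higher values in every high glucose library, with or without Hsp70, than in any normal glucose library, but neither difference passed the test across all genes. Hspa1a was 8.28, 8.52 and 8.37 in normal glucose, 9.32, 8.94, 8.97 and 8.86 in high glucose, and 9.28, 8.89, 8.86 and 8.99 with Hsp70. The 3 normal glucose libraries were the lowest of all, and the libraries of set 2, which come first in each high glucose group, were the highest. In normalized counts its group means were 335 ± 28.3 (SD, n = 3), 523 ± 78.6 (n = 4) and 518 ± 72.3 (n = 4).
Hspa1b was 8.71, 8.99 and 8.64 in normal glucose, 9.61, 9.35, 9.36 and 9.15 in high glucose, and 9.67, 9.30, 9.08 and 9.42 with Hsp70. The gap between the highest normal glucose library (8.99) and the lowest high glucose library (9.08) was small. Its mean normalized counts were 441 ± 58.9 (n = 3), 663 ± 87.9 (n = 4) and 666 ± 113 (n = 4).

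For both high glucose groups against normal glucose, the difference of Hspa1a was 0.63 (SE 0.144, 95% interval 0.31 to 0.94), 1.54-fold. That of Hspa1b was 0.59 (SE 0.154, 0.25 to 0.92), 1.5-fold. By limma's unadjusted p-values, 0.000934 and 0.00246, they ranked 3 and 8 of all genes tested, and the adjusted p of limma was 1 for both. In the limma fit with file set as a block they ranked 14 and 62. The two-sided exact permutation test over libraries gave p = 0.00606 for each, the smallest its 165 splits allow, and an adjusted p over all genes of 1. With labels moved only within file sets, the exact p was 0.037 for each, the smallest of 27 arrangements.
The groups did not overlap, in the higher direction, for 19 of 18248 genes (0.104%), and Hspa1a and Hspa1b were 2 of them. The other 8 family genes overlapped. The same 3 normal glucose libraries serve both comparisons, which are given side by side: high glucose minus normal glucose was 0.63 (0.28 to 0.99) for Hspa1a and 0.59 (0.21 to 0.96) for Hspa1b, and Hsp70 minus normal glucose was 0.62 (0.27 to 0.97) and 0.58 (0.21 to 0.96). Taken alone, 1.06% and 0.482% of genes lay without overlap above normal glucose in these comparisons.

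limma called 0% of the 18248 genes in each of the 4 group comparisons, family genes included. At an unadjusted p under 0.05, limma had 185 genes (1.01%) for high minus normal glucose, 136 (0.745%) for Hsp70 minus high glucose, 178 (0.975%) for Hsp70 minus normal glucose and 185 (1.01%) for both high glucose groups. With file set as a block these shares were 3.49%, 1.67%, 3.22% and 3.73%, with 0 called after adjustment. The exact permutation test over all genes called 0 after adjustment. Its smallest possible p-values were 0.0286, 0.0143, 0.0286 and 0.00606, which leave little room to call a gene among 18248, so this 0 adds little. Hspa1a and Hspa1b were the only family genes under that unadjusted threshold, in the 3 comparisons with normal glucose.

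Within sets 3, 4 and 5, high glucose exceeded normal glucose by 0.66, 0.45 and 0.48 for Hspa1a and by 0.64, 0.37 and 0.51 for Hspa1b. With Hsp70 the excess over normal glucose was 0.62, 0.35 and 0.62 for Hspa1a, and 0.59, 0.08 and 0.77 for Hspa1b. All 6 differences of each gene were above 0, which held for 478 genes (2.62%). Hspa1l, Hspa2 and Hspa4l were also higher in high than in normal glucose in each set, making 5 of 10 family genes where 11.3% of all genes were. These 5 are not independent, since Hspa1a, Hspa1b and Hspa1l share sequence. Some differences were small, with 0.06 for Hspa4l in set 5 and 0.1 for Hspa2 in set 3. In Hsp70 minus normal glucose, only Hspa1a and Hspa1b of the family were higher in each set. There set 4 was lower for Hspa1l (-0.14), Hspa2 (-0.29) and Hspa4l (-0.35). With file set as a block, sets 3, 4 and 5 alone inform the comparison with normal glucose, and the difference was 0.53 (0.29 to 0.77, limma adjusted p = 0.819) for Hspa1a and 0.50 (0.21 to 0.79, adjusted p = 1) for Hspa1b.
Added Hsp70 gave no detectable further difference. Hsp70 minus high glucose was -0.01 (-0.34 to 0.32) for Hspa1a and -0.0015 (-0.35 to 0.35) for Hspa1b, and by set the differences of Hspa1a were -0.04, -0.05, -0.11 and 0.14. The intervals leave room for a change of 0.32 or more in either direction.

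**Figure D2:**
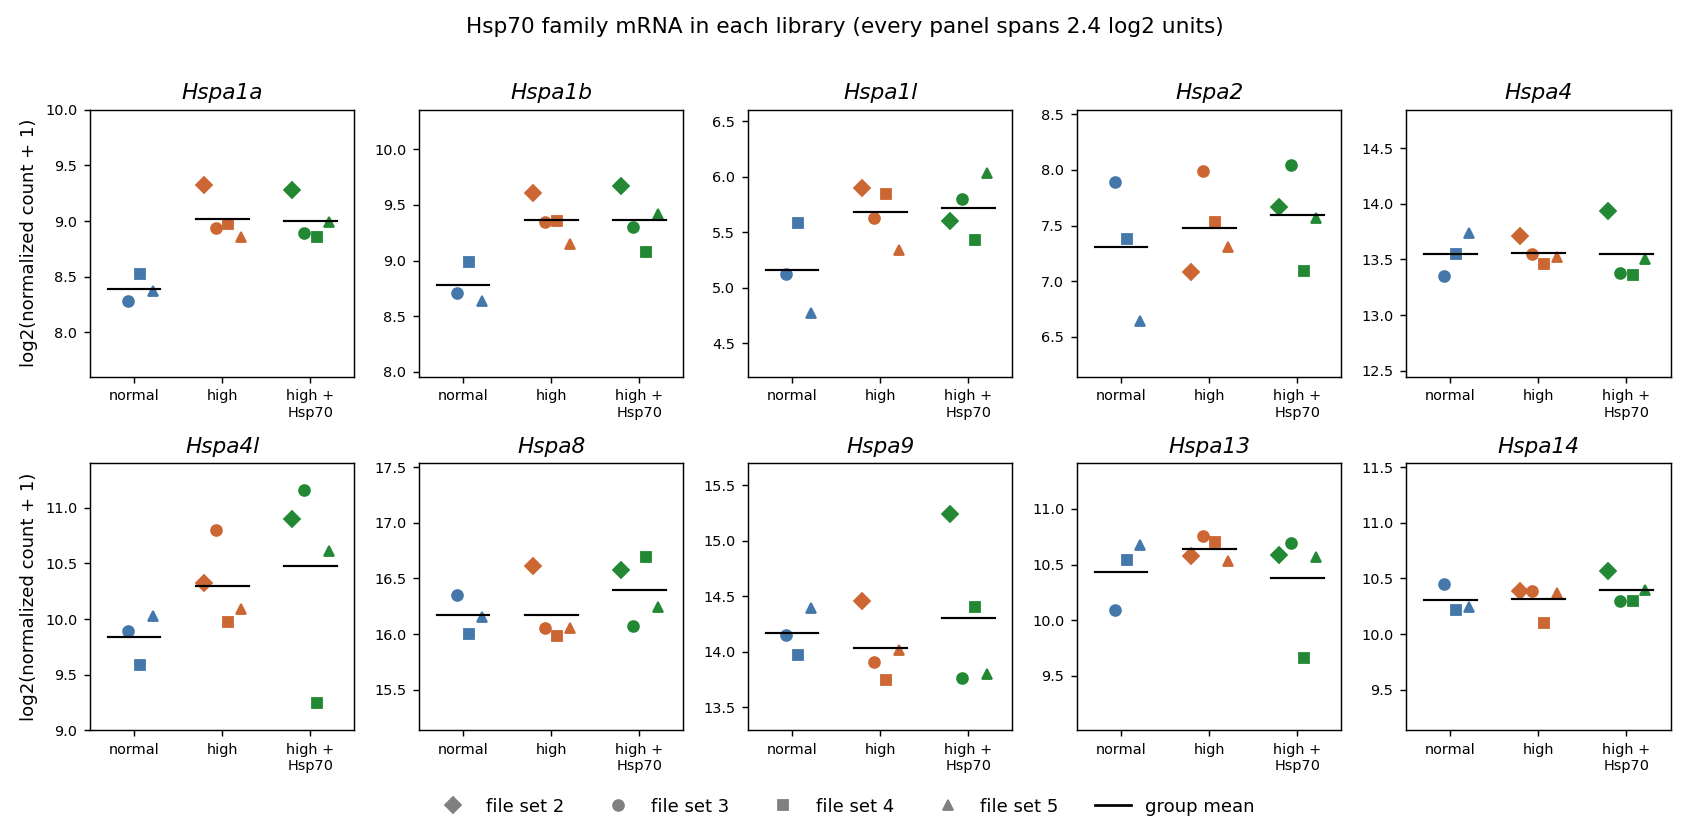
log2(normalized count + 1) of the 10 genes in each of the 11 libraries by group, with file set as the point shape and the group mean as a line; every panel spans the same number of log2 units. For Hspa1a the normal glucose points lie at 8.28 to 8.52 and the others at 8.86 to 9.32; Hspa4l, Hspa9 and Hspa13 each have 1 distant Hsp70 library.

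Hspa1l, the testis-enriched neighbour of Hspa1a that is not heat-inducible, had a difference of like size with wider scatter, which was not called. It was 5.12, 5.58 and 4.77 in normal glucose, 5.90, 5.63, 5.84 and 5.34 in high glucose, and 5.60, 5.80, 5.43 and 6.03 with Hsp70. Set 4 of normal glucose (5.58) lay among the high glucose libraries, so the groups overlapped. The difference of both high glucose groups from normal glucose was 0.54 (SE 0.249, -0.0041 to 1.08, limma adjusted p = 1), and 5 of the 6 within-set differences were above 0, from -0.14 to 1.25. Hsp70 minus high glucose was 0.04 (-0.53 to 0.61). Its mean normalized count was 47.1 ± 11.2 (n = 11), the lowest of the family, so its relative counting error is the largest. It shares sequence with the far more abundant Hspa1a and Hspa1b. How far shared reads enter its values and its difference was not tested.
Hspa2 was 7.89, 7.38 and 6.64 in normal glucose, 7.08, 7.99, 7.53 and 7.31 in high glucose, and 7.67, 8.04, 7.09 and 7.57 with Hsp70. The set 3 library was the highest in every group and the groups overlapped. Both high glucose groups minus normal glucose was 0.23 (-0.38 to 0.85), and it ran from -0.10 without normal glucose replicate 3 to 0.53 without replicate 1.

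Hspa8, which is made without stress, had overlapping groups. It was 16.35, 16.00 and 16.15 in normal glucose, 16.61, 16.05, 15.98 and 16.05 in high glucose, and 16.58, 16.07, 16.69 and 16.24 with Hsp70. Both libraries of set 2 and Hsp70 replicate 3 stood high. Both high glucose groups minus normal glucose was 0.12 (-0.29 to 0.53), and high minus normal glucose was 0.0069 (-0.46 to 0.47). Hsp70 minus high glucose was 0.22 (-0.20 to 0.65), 1.17-fold. It was 0.13 without Hsp70 replicate 3, 0.37 without high glucose replicate 1 and 0.45 in sets 4 and 5 only. None passed limma (adjusted p = 1).

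Of the organelle members, Hspa9 varied most in the Hsp70 group. This import motor and folding chaperone of the mitochondrial matrix was 14.15, 13.97 and 14.39 in normal glucose, 14.46, 13.91, 13.75 and 14.02 in high glucose, and 15.24, 13.76, 14.40 and 13.80 with Hsp70. Hsp70 replicate 1 was the highest library, and the other library of set 2, high glucose replicate 1 at 14.46, came next. Hsp70 minus high glucose was 0.27 (-0.38 to 0.91), -0.05 without Hsp70 replicate 1 and 0.45 without Hsp70 replicate 2. In sets 3, 4 and 5 only, which leaves out both set 2 libraries, it was 0.1. High minus normal glucose was -0.14 (-0.83 to 0.56), and within sets 3, 4 and 5 it was -0.24, -0.22 and -0.38. Hspa8 and Hspa9 were lower in high than in normal glucose in each of these sets, as were 14.3% of all genes.
Hspa13, whose product lacks the usual peptide-binding domain, was 10.09, 10.54 and 10.68 in normal glucose, 10.58, 10.76, 10.70 and 10.53 in high glucose, and 10.59, 10.69, 9.66 and 10.57 with Hsp70. Replicate 3 of Hsp70 was the lowest library. Hsp70 minus high glucose was -0.26 (-0.74 to 0.22), -0.03 without it and -0.49 in sets 4 and 5 only. Hsp70 minus normal glucose was -0.06, with 0.18 without that library, -0.34 without set 3 and -0.49 in sets 4 and 5 only.

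The Hsp110-class genes Hspa4 and Hspa4l, whose products serve as exchange factors for Hsp70, are given side by side. Hspa4 was 13.35, 13.55 and 13.74 in normal glucose, 13.71, 13.55, 13.46 and 13.52 in high glucose, and 13.94, 13.38, 13.36 and 13.50 with Hsp70. Its groups lay on top of each other, with 0.0038 (-0.34 to 0.34) for both high glucose groups minus normal glucose and -0.01 (-0.37 to 0.34) for Hsp70 minus high glucose.
Hspa4l was 9.89, 9.59 and 10.03 in normal glucose, 10.32, 10.80, 9.97 and 10.09 in high glucose, and 10.90, 11.16, 9.24 and 10.61 with Hsp70. Of the Hsp70 libraries 3 exceeded every normal glucose library, whereas replicate 3 was the lowest of all 11. Hsp70 minus normal glucose was 0.64 (SE 0.385, -0.20 to 1.48, limma adjusted p = 1). It was 1.05 without replicate 3, 0.41 without replicate 2 and 0.11 in sets 4 and 5 only. Hsp70 minus high glucose was 0.18 (-0.60 to 0.96), with 0.59 without replicate 3, -0.05 without replicate 2 and -0.11 in sets 4 and 5 only. None of these values passed the adjusted threshold.
Hspa14, which pairs with a J-domain protein at the ribosome, varied least, from 10.10 to 10.57 over the 11 libraries. Both high glucose groups minus normal glucose was 0.05 (-0.22 to 0.32), and Hsp70 minus high glucose was 0.08 (-0.20 to 0.36).

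**Figure D3:**
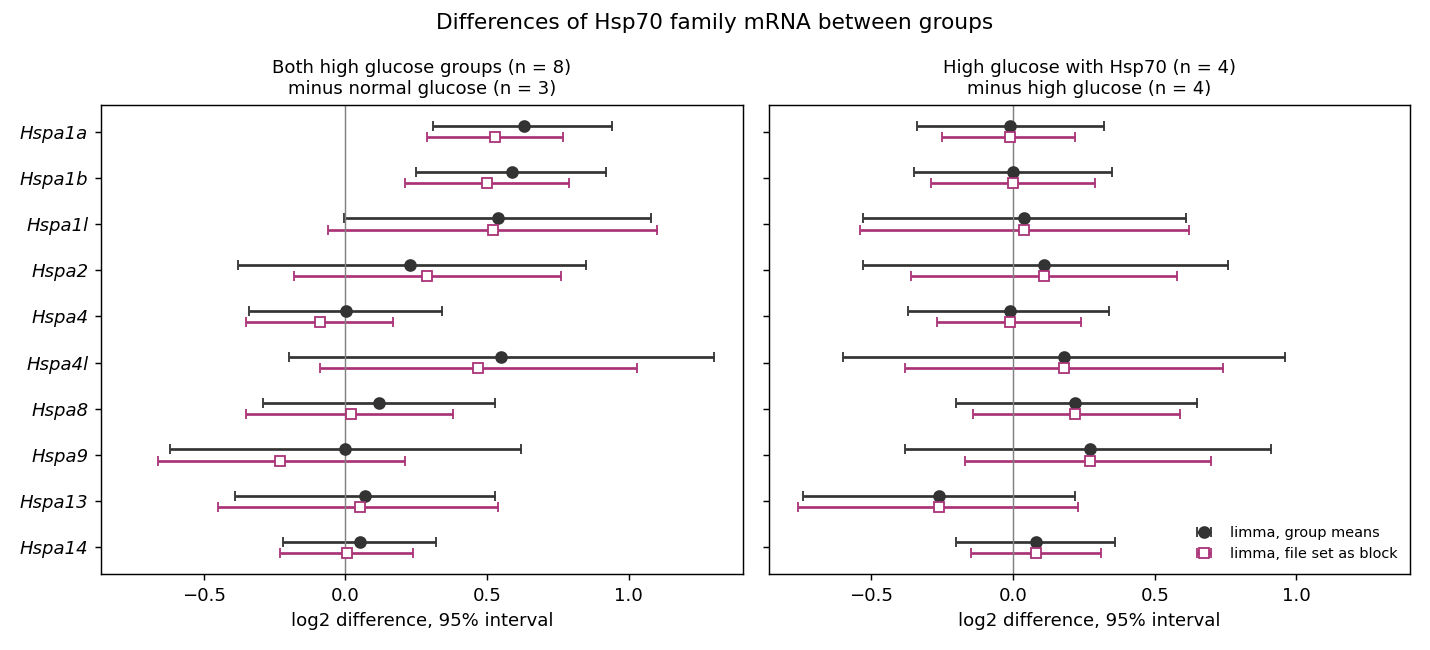
limma differences of the 10 genes on the log2 scale with 95% intervals, for both high glucose groups minus normal glucose and for Hsp70 minus high glucose; filled circles are the fit of group means and open squares the fit with file set as a block. In the first comparison the intervals of Hspa1a (0.31 to 0.94) and Hspa1b (0.25 to 0.92) lie above 0 in both fits; in the second every interval spans 0, and no gene passed after adjustment over all genes.

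The inducible genes were set against the others as a ratio within each library, which does not depend on how a library was scaled. Hspa1a and Hspa1b were summed, so that the split of shared reads between them does not enter. The sum was 726, 873 and 729 normalized counts in normal glucose, 1418, 1140, 1156 and 1029 in high glucose, and 1433, 1105, 1004 and 1190 with Hsp70. The groups with high glucose did not overlap normal glucose. Hspa1b over Hspa1a stayed between 0.21 and 0.48 as a log2 ratio.
Against Hspa4 the log2 ratio of the sum was -3.95 ± 0.239 (SD, n = 3) in normal glucose, -3.36 ± 0.12 (n = 4) in high glucose and -3.35 ± 0.0898 (n = 4) with Hsp70. The normal glucose libraries lay at -4.23 to -3.78 and all others at -3.51 to -3.24, without overlap. The planned ratios were those to Hspa8 and Hspa9, and the ratio to Hspa4 was an alternative to them. Within sets 3, 4 and 5 the ratio was higher in high than in normal glucose by 0.46, 0.50 and 0.72, and with Hsp70 by 0.58, 0.39 and 0.94.
Against Hspa8 the ratio was -6.57 ± 0.316, -5.97 ± 0.15 and -6.20 ± 0.351. The 4 high glucose libraries (-6.14 to -5.81) lay above the 3 of normal glucose (-6.85 to -6.23), but Hsp70 replicate 3, at -6.72, lay among the latter. Within set 4 the Hsp70 library was 0.49 below normal glucose (a difference of -0.49), whereas in sets 3 and 5 it was above by 0.88 and 0.62.
Against Hspa9 the ratio was -4.57 ± 0.348, -3.83 ± 0.207 and -4.10 ± 0.58. Hsp70 replicates 1 and 3, at -4.76 and -4.43, lay among the normal glucose libraries (-4.88 to -4.2). High exceeded normal glucose by 0.89, 0.62 and 0.87 within sets 3, 4 and 5, and Hsp70 differed from normal glucose by 0.99, -0.23 and 1.30. No test was made of these ratios.

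**Figure D4:**
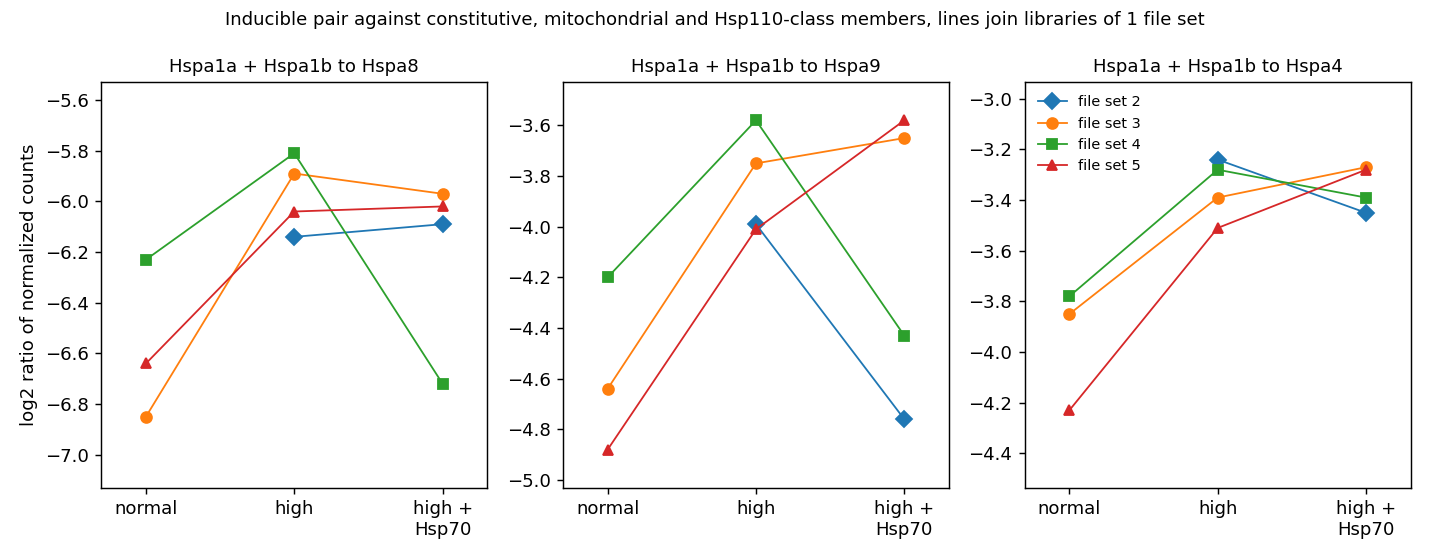
log2 ratio of the summed normalized counts of Hspa1a and Hspa1b to those of Hspa8, Hspa9 and Hspa4 in each library by group, with a line joining the libraries of 1 file set. From normal to high glucose the ratio is higher in each of sets 3, 4 and 5 in all 3 panels; in set 4 the ratio to Hspa8 is -5.81 in high glucose and -6.72 with Hsp70.

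Many genes differed by file set. The share of genes with a value of 0 also differed by set. It was 11.8% in each library of sets 4 and 5, 21.2% to 22.9% in set 3 and 25.2% to 25.9% in set 2. How this relates to the set differences was not tested. limma found a difference among the sets for 11.9% of genes, and for none of the 10 family genes (unadjusted p under 0.05 for Hspa2, Hspa4l and Hspa9). Set 3 differed from the mean of sets 2, 4 and 5 in 12.7% of genes, 8.21% higher, and Hspa2 was the 1 family gene among them: 0.71 higher (SE 0.203, 0.25 to 1.17, limma adjusted p = 0.0496). The call rested at the threshold and was kept in 6 of 19 alternatives, with adjusted p from 0.00259 to 0.213. Set 3 is also the set with the most endothelial, fibroblast, macrophage and Schwann cell marker RNA. Whether the marker differences and that of Hspa2 are related was not tested. For Hspa1a and Hspa1b set 3 differed by -0.18 (-0.41 to 0.05) and -0.11 (-0.39 to 0.17). Without set 3 the difference of both high glucose groups from normal glucose was 0.60 and 0.56.

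After subtraction of the file-set means, the values of Hspa1a and Hspa1b had r = 0.957 over the 11 libraries, Hspa1b and Hspa1l 0.90, and Hspa8 and Hspa13 -0.94. Libraries share sets, and Hspa1a, Hspa1b and Hspa1l share sequence. How far shared reads enter their correlations was not tested. For the last pair, Hsp70 replicate 3 is the highest library of one gene and the lowest of the other. Of 8832 other genes above the median level, those most like Hspa1a were Pde1a (0.981), a phosphodiesterase of cyclic nucleotides, Sfrp2 (0.964) and Frzb (0.939), secreted Wnt antagonists, Prepl (0.962) and AW551984 (0.953). Those most like Hspa8 were Klhdc4 (0.996), Nt5c2 (0.994), Zfpl1 (0.989), Prr13 (0.988) and Tbl3 (0.988). These are the highest of many correlations over few libraries and are given as description only.

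The partners of Hsp70 in 6 lists were examined as counts. In no list did a gene pass limma in any group comparison, and none had an unadjusted p under 0.05. For both high glucose groups minus normal glucose, 9 of the 10 family genes were above 0, with a median of 0.176, where all genes had 48.6% above 0 and a median of -0.00514. Hspa4 is counted there at 0.0038, and was -0.09 with file set as a block. Hspa1a, Hspa1b and Hspa1l share sequence, so the 9 are not independent. Among 16 heat shock factors and their classical targets, 12 were above 0 and 4 below, and the median was 0.0236. In high minus normal glucose 8 were above 0 and 8 below (median -0.0152). In Hsp70 minus normal glucose 13 were above 0 and 3 below (median 0.0632). For both high glucose groups, the 3 of smallest unadjusted p had differences of 0.18 for Cryab, a small heat shock protein, 0.18 for Chordc1, an Hsp90 partner, and 0.17 for Hsf2, a heat shock factor.
Of 10 cytosolic J-domain partners 8 were above 0 (median 0.0608), with 0.18 for Dnaja1, 0.15 for Dnaja2 and 0.16 for Dnaja4. Of 11 exchange factors 6 were above 0 (median 0.0117), with 0.24 for Hsph1, a cytosolic Hsp110, -0.05 for Bag5 and 0.09 for Hspbp1. Of 8 adaptors and ligases that link Hsp70 and Hsp90, 6 were above 0 (median 0.0658), with 0.09 for Stip1, 0.15 for Fkbp4 and 0.07 for Ptges3.
Of 12 mitochondrial partners of Hspa9, 6 were above 0 (median 0.00054), with -0.19 for Hscb, -0.13 for Timm44 and 0.11 for Iscu. Of 5 further superfamily genes 3 were above 0 (median 0.0224), with 0.13 for Hspa12b and -0.07 for Hspa12a beside Hsph1. For Hsp70 minus high glucose, 11 of the 12 mitochondrial partners were above 0 (median 0.105) and 9 of the 11 exchange factors (median 0.128), where 50.7% of all genes were. In set 3 against the others, where limma called 8.21% of all genes higher and 4.48% lower, it called 3 of the 16 heat shock genes higher: Hsph1 by 0.66 (adjusted p = 0.00493), Hspb1 by 0.55 (adjusted p = 0.0111) and Cryab by 0.47 (adjusted p = 0.00821). Over the other lists, Dnaja2 was called higher by 0.45 (adjusted p = 0.0264), and Fkbp5, an Hsp90-bound isomerase, lower with a difference of -0.72 (adjusted p = 0.00183). Hspb1 and Fkbp5 are named after their values were seen.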

How the data were processed

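Per the values, the deposited files (1 per library, 23282 rows) hold log2 values, read as log2(normalized count + 1). TopHat, edgeR and mm10 appear in the submitters' processing notes. Their versions, the annotation, the kind of normalization and the treatment of multi-mapped reads were not given in the sources used here. Of repeated symbols the row with the highest mean was kept (44 dropped). limma 3.58.1 in R 4.3.3 fitted 3 group means to the deposited log2 values of 18248 genes, with trended and robust variance and Benjamini-Hochberg adjustment over all genes at 0.05. The fit was tested on simulated data with changes of 1 log2 unit or more, independent noise and no differences between file sets. That test does not cover differences as small as those of the family genes. Single genes were also compared by exact permutation. Exon lengths and positions came from GENCODE M21, promoters from RefSeq; protein sequences were not analysed here. Figures used matplotlib 3.10.9.

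The family genes, gene lists and comparisons were chosen with earlier results of these data known. Named genes are the 10 members, per list the 3 of smallest unadjusted p for both high glucose groups, and the 5 genes most correlated with Hspa1a and with Hspa8. Alternatives covered the block, file sets, filters, scaling, pseudocount (5), variance settings and leaving out each library. After group means were taken out, high and normal glucose libraries of 1 file set correlated at 0.594, 0.302 and 0.285 (sets 3, 4 and 5), so file set was taken to pair them. For Hsp70 and high glucose the values were 0.422, 0.691, 0.0586 and 0.262 (sets 2 to 5), and for Hsp70 and normal glucose 0.458, 0.0219 and 0.372, so 1 pair of each fell under 0.1. No 2 libraries were copies. Depth is known only as the sums given with the results, and the small number of libraries limits the precision.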

Additional observations from a re-analysis of the deposited data

Results flagged for a closer look

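In 3 of 24 series of 4 libraries (a family gene or ratio in 1 group), 1 library lay far from the other 3 by Dixon's criterion, which chance meets in about 1 group in 20. Hspa8 in high glucose replicate 1 was 16.61, with the others at 15.98 to 16.05; the set 2 library with Hsp70 was also high, at 16.58. Hspa13 in Hsp70 replicate 3 was 9.66, with the others at 10.57 to 10.69; in the same library Hspa4l was the lowest of all 11 and Hspa8 the highest. Hspa14 in high glucose replicate 3 was 10.10, with the others at 10.37 to 10.39. What sets these libraries apart was not tested.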

How the results depend on the processing

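Over 26 alternatives the difference of both high glucose groups from normal glucose ran from 0.48 to 0.69 for Hspa1a (limma adjusted p 0.819 to 1) and from 0.43 to 0.69 for Hspa1b (0.952 to 1). No family gene was called in a group comparison in any alternative. With a replicate block, by file set and by title number alike, 0 genes were called in all 4 comparisons. Without Hsp70 replicate 2, 3 genes were called for Hsp70 minus high glucose and 3 for Hsp70 minus normal glucose (range 0 to 3 over libraries left out). The 2165 genes that differed among file sets became 1375 with no filter, 1396 without trended and robust variance, 8529 with sample quality weights, and 614 (without high glucose replicate 2) to 5200 (without Hsp70 replicate 3) with 1 library left out. Of the other libraries, leaving out normal glucose replicate 3 gave 1050, high glucose replicate 1 gave 1357, and Hsp70 replicates 1, 2 and 4 gave 1023, 915 and 1206. The 2317 genes of set 3 became 6662 with weights and 939 to 3805 with the same libraries left out, and 1187 without Hsp70 replicate 2. The causes were not tested. In that contrast Hspa4l was called with weights (0.56, adjusted p = 0.00173) and without Hsp70 replicate 3 (0.40, adjusted p = 0.048). Title numbers did not pair high with normal glucose libraries, which had correlations of -0.224, -0.357 and 0.137. Between high glucose and Hsp70, title number and file set give the same pairs, so the title block is no separate check there. The ratios of the inducible pair moved by less than 1 SD in every alternative run for them.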
